A study of Mus musculus with 192 samples.

Results

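Interscapular brown adipose tissue (iBAT) of Nrf2-knockout mice was compared between 5 mice flown to the International Space Station (FL_KO) and 6 mice kept on the ground (GC_KO). The 11 libraries were chosen by their labels (tissue iBAT, genotype Nrf2KO, Flight or Ground_control), out of 192 libraries from 9 tissues. All mice carried the Nfe2l2 tm1Ymk allele on the C57BL/6J background, were male, were housed singly and are labelled as 12 weeks old. The study's methods give 12 weeks as the age when the mice were ready for launch. The flight tissue was taken after a stay of about a month, from mice older than the label. FL_KO mice FL01, FL02, FL09, FL11 and FL12 were compared with GC_KO mice GC01, GC02, GC04, GC09, GC11 and GC12. Mouse FL04 was left out, as it was by the study. The ground mice were kept in the same kind of cage, but in another place and at a later date than the flight, and the flight mice were dissected only after splashdown and transport. The study's methods describe a change to flight food before launch and name CRF-1 as the food of the ground mice. They do not say how these foods compare. Flight, return, place, date and any difference in food therefore cannot be told apart in this comparison. The 6 FL_WT and 6 GC_WT libraries of iBAT entered the same fit and are used where the flight response of the genotypes is set side by side.

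Brown adipose tissue burns fuel to produce heat. Its adipocytes hold many mitochondria and many small lipid droplets, and noradrenaline from sympathetic nerves drives lipolysis and the uncoupling protein UCP1, which lets protons return to the mitochondrial matrix without making ATP. The tissue takes up glucose and triglyceride-derived fatty acids, and it can make fatty acids itself through de novo lipogenesis, a pathway induced by insulin and carbohydrate through the transcription factors SREBP-1c and ChREBP. NRF2, encoded by Nfe2l2, is released from KEAP1 under oxidative or electrophilic stress and activates antioxidant and NADPH-producing genes.

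Values per mouse are CPM, the counts scaled to a common library total with TMM factors, and the 5 FL_KO values are always given in the order FL01, FL02, FL09, FL11 and FL12. A change is the log2 ratio of FL_KO to GC_KO. The value after ± is an approximate standard error, the size of the change divided by the square root of the test's F statistic. Unless another fit is named, an adjusted p comes from edgeR's quasi-likelihood test with Benjamini-Hochberg adjustment over 13574 genes. Other fits were adjusted over the genes that each of them tested. The threshold for a call was an adjusted p of 0.05. TPM, which corrects for transcript length, is used to compare levels between genes. Where a value is given with the mouse number as a block, mice of the same number in the labels (such as FL01 and GC01) were matched in the fit. Each library came from 1 mouse and held 15.7 to 16.3 M counts. TPM is not TMM-scaled, so TPM and CPM of the same gene can differ in the size, and for small changes in the sign, of the difference between groups.

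The targeted gene followed the labels. Nfe2l2 (chr2:75675513-75704641 on GRCm38) gave 11.8 to 16.5 TPM in GC_KO and 16.5 to 19.0 TPM in FL_KO, below the 35.6 to 40.5 TPM of GC_WT and the 34.6 to 57.1 TPM of FL_WT. The transcript that remained in the knockout did not pass the test between flight and ground, at -0.12 ± 0.12 (adjusted p = 0.461), although on log2(TPM + 1) its change was 0.31 with an adjusted p of 0.0128 by limma. The tissue label was matched by the defining genes of brown fat, since Ucp1 averaged 2139 TPM in GC_KO and 2722 TPM in FL_KO, Cidea 1792 and 1931 TPM, and Cox8b 1652 and 1367 TPM. In the brown, general and white adipocyte marker lists 1, 2 and 0 genes were called higher and 4, 3 and 1 lower, of 12, 12 and 9 tested. Leaving out any 1 of GC12, FL02, FL11 and FL12 took the general list from 3 to 1 lower. The list medians were -0.02, -0.09 and -0.05, and 0.34, 0.25 and 0.28 with library size alone. Of the white adipocyte marker list, Lep, which encodes leptin, read 28.4, 6.05, 5.17, 41.9 and 36.5 CPM in FL_KO against 31.1 to 107 CPM (median 45.7) in GC_KO, and the groups overlapped. Its change was -1.25 ± 0.61 (adjusted p = 0.12), and it was called with the mouse number as a block (-1.56, adjusted p = 0.0166).

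One FL_KO library stood apart. FL11 carried skeletal muscle transcripts, with a summed level of 17533 CPM over the muscle list, whereas the other 4 FL_KO libraries held 80.4 to 244 CPM and the 6 GC_KO libraries 98.7 to 282 CPM. Acta1, the skeletal muscle actin, read 19.5, 0.587, 0.222, 2216 and 0.842 CPM in FL_KO against 0.0714 to 24.2 CPM (median 0.389) in GC_KO, so that only FL11 was far above the ground mice. For Acta1 the call ended when any 1 of FL11, GC01, GC02, GC04, GC09 and GC11 was left out (adjusted p = 0.0575 to 0.94). Of 35 muscle genes tested, 28 were called higher with FL11 and 0 without it (18 without GC09 and 18 without GC11), and the median log2 change fell from 6.40 to 0.24. The FL_WT libraries FL06 and FL08 also carried muscle transcripts (16883 and 7127 CPM), which touches the comparison with wild type below. Counts that differ without FL11 are therefore given both ways below.

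**Figure D1:**
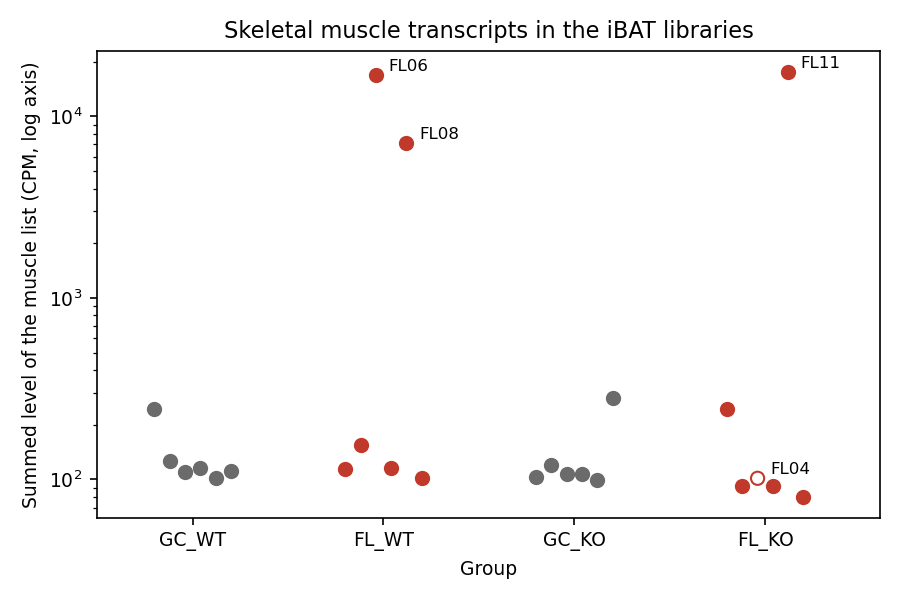
Summed level of the skeletal muscle list in each iBAT library, in CPM on a log axis, by group; each point is 1 mouse and FL04 is drawn as an open point. FL08, FL06 and FL11 lie at 7127, 16883 and 17533 CPM, and every other library lies at or below 282 CPM.

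Flight and ground differed across much of the knockout brown fat transcriptome. Of the 13574 genes tested, 2303 were called higher (17%) and 2251 lower (16.6%) in FL_KO. Without FL11, 2155 of 13702 genes were higher (15.7%) and 2127 were lower (15.5%), and 1989 and 2011 of them were among the calls made with it. These shares are the background against which each list below is to be read. Of 158 named genes that were called, 139 kept their call when any 1 of the 11 mice was left out, and the others are marked where they are named.

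The split between higher and lower calls rests on the scaling. The 10 most abundant genes took 41.8 to 43.5% of the counts in GC_KO libraries and 33.1 to 39.3% in FL_KO libraries, and Scd1, Fasn and Acly alone took 6.69 to 8.49% and 1.64 to 3.95%. TMM factors were 0.859 to 0.933 in GC_KO and 1.04 to 1.21 in FL_KO, and they set the median gene to a log2 change of 0.04. With library size alone the median gene lay at 0.40, and the calls became 6826 higher and 763 lower (89.9% higher, against 50.6% with TMM). On log2(TPM + 1) with limma the median was 0.43, with 5230 higher and 435 lower of 8006 genes. All changes below are thus relative to the median gene of the tissue, and the values with library size alone are given for the described lists whose median turned sign. Those values are to be read against the 6826 higher and 763 lower of 13574 genes on that scale. A list whose median turned positive but stayed under 0.40 still lay below the median gene.

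De novo lipogenesis had the lowest median of the lists examined. Of 18 members tested, 16 fell and 0 rose, with and without FL11, at a median log2 change of -2.24 (-2.28 without FL11), against 0.04 over all genes. With library size alone the median was -1.87, and 15 members were lower in every FL_KO mouse than in any GC_KO mouse, as were 10% of all genes tested. In whole tissue, fewer cells of a type and less message per cell cannot be told apart. The summed level of the general adipocyte markers was 17060.4 to 19491 CPM in FL_KO and 17251 to 19523 CPM in GC_KO.

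Cytosolic acetyl-CoA, the carbon source of the pathway, comes from citrate. Slc25a1, the mitochondrial citrate carrier, read 193, 172, 168, 138 and 138 CPM in FL_KO against 680.0 to 1127 CPM (median 895) in GC_KO. Acly, the enzyme that splits exported citrate, read 208, 159.9, 253, 192 and 203 CPM in FL_KO against 2660.0 to 6310.2 CPM (median 3873) in GC_KO. Acss2, which makes acetyl-CoA from acetate, read 85.6, 68.0, 81.2, 67.7 and 61.5 CPM in FL_KO against 316 to 512 CPM (median 373) in GC_KO. All FL_KO mice lay below all GC_KO mice for each of these 3 genes. Slc25a1 fell by 2.47 ± 0.16 (adjusted p = 4.97e-10), Acly by 4.40 ± 0.35 (adjusted p = 6.06e-09) and Acss2 by 2.44 ± 0.17 (adjusted p = 1.09e-09). Acly had averaged 1154 TPM on the ground and averaged 73.9 TPM after flight.

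The enzymes of fatty acid synthesis fell too. Acaca, acetyl-CoA carboxylase 1, which makes malonyl-CoA, read 504, 342, 471, 372 and 369 CPM in FL_KO against 3053 to 4108 CPM (median 3436) in GC_KO. Fasn, the fatty acid synthase, read 3907, 2449, 3299.8, 2816 and 2329 CPM in FL_KO against 30226 to 39520.1 CPM (median 31895) in GC_KO. For both genes the lowest ground mouse lay far above the highest flight mouse. Acaca fell by 3.09 ± 0.21 (adjusted p = 1.09e-09) and Fasn by 3.48 ± 0.26 (adjusted p = 2.28e-09). Elovl6, which elongates palmitate, fell by 1.83 ± 0.18 (adjusted p = 1.57e-07), and its FL_KO values ranged from 269 to 539 CPM below the 1041 CPM of the lowest ground mouse.

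Desaturation of the product differed between genes. Scd1, the main stearoyl-CoA desaturase and the most abundant lipogenic message at 10470.5 TPM on the ground, read 33908, 12874, 16494, 13459 and 17886 CPM in FL_KO against 37334 to 52396 CPM (median 42926) in GC_KO. FL01 stood nearest to the ground mice. Scd1 fell by 1.25 ± 0.21 (adjusted p = 0.000103), less than Scd2, a second desaturase, which fell by 3.54 ± 0.50 (adjusted p = 1.43e-05) from 126 to 15.1 TPM. Scd1 and Scd2 are close in sequence, so reads may have been divided between them.

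The transcription factors of the pathway were lower too. Mlxipl, which encodes ChREBP, read 219, 179, 257, 218 and 266 CPM in FL_KO against 360.2 to 824 CPM (median 627) in GC_KO, with no overlap, and fell by 1.42 ± 0.22 (adjusted p = 4.68e-05). Srebf1, which encodes SREBP-1, read 100.3, 70.6, 152, 209 and 185 CPM in FL_KO against 179.6 to 593 CPM (median 379) in GC_KO. It fell by 1.44 ± 0.34 (adjusted p = 0.00244), although FL11 and FL12 exceeded the lowest ground mouse.

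Upstream sequences are shown for both lipogenic genes with a palindromic E-box (Slc25a1 and Mlxipl) and for the pathway's main enzymes Acly and Fasn, because ChREBP and SREBP-1 bind E-box elements. They are the 250 bases before the annotated start, 5′ to 3′ on the coding strand, from RefSeq on GRCm38.p6, with matches to CACGTG (the palindromic E-box), TTATGNAA (the D-box) and TGACNNNGC (the core of the antioxidant response element) on either strand in capitals. Slc25a1 at chr16:17928220-17928469 (minus strand), Mlxipl at chr5:135089640-135089889 (plus strand), Acly at chr11:100528001-100528250 (minus strand) and Fasn at chr11:120824548-120824797 (minus strand) read:
Slc25a1: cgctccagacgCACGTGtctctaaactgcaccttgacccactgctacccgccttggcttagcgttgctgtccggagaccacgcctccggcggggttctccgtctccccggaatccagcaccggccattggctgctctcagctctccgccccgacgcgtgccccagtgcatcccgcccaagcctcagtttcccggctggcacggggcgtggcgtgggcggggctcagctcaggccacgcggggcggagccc
Mlxipl: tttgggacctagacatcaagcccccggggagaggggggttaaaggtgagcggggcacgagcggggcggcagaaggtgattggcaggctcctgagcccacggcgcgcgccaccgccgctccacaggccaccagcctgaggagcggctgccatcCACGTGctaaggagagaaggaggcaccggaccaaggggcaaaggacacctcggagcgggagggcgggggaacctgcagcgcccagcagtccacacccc
Acly: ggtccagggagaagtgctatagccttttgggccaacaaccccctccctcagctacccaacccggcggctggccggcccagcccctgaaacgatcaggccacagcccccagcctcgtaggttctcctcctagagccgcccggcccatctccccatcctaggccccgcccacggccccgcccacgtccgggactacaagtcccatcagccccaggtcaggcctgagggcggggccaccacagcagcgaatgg
Fasn: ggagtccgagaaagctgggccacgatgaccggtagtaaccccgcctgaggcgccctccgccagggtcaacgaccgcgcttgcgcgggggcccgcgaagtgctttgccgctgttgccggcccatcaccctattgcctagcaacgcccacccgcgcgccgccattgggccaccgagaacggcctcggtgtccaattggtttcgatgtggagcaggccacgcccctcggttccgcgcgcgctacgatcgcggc
The E-box began 239 bases before the start of Slc25a1 and 98 bases before that of Mlxipl, and none of the 3 motifs lies in these windows of Acly and Fasn. Of 11 lipogenic genes named by rule, 9 had a promoter in the RefSeq table, with 13 promoters in all. CACGTG was held by 2 of the 9 genes and by 2 of the 13 promoters. The other Mlxipl promoter held none of the 3 motifs. Over all 32851 promoters, 6.02% held CACGTG, 3.07% TTATGNAA and 10.2% TGACNNNGC. A match is a description of the sequence and not a measured site.

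**Figure D2:**
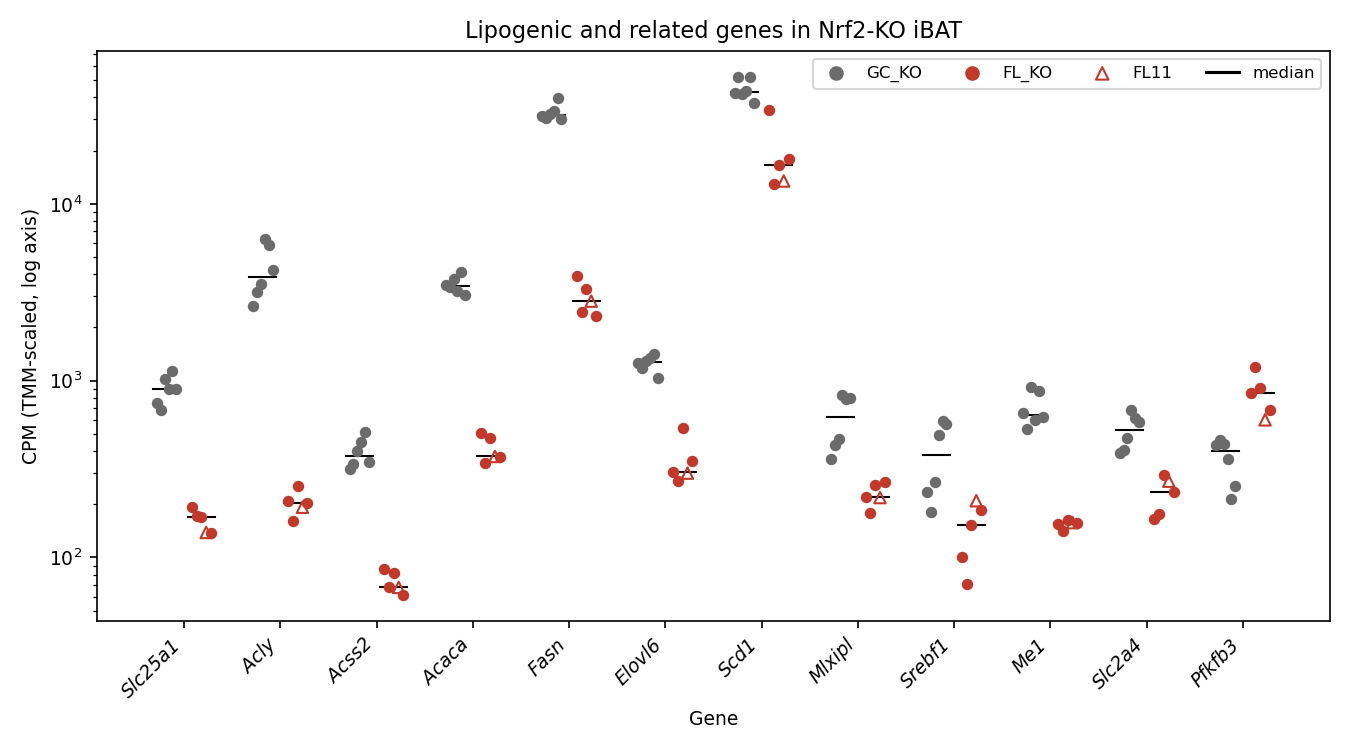
CPM of 12 genes of fatty acid synthesis, NADPH supply and glucose handling in each mouse, on a log axis, with GC_KO in grey and FL_KO in red and FL11 as an open triangle; horizontal bars are group medians. FL_KO mice lie below GC_KO mice for every gene drawn except Srebf1, where FL11 and FL12 reach the ground range, and Pfkfb3, which is higher in FL_KO.

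Reducing power for lipogenesis comes from NADPH made by the pentose phosphate pathway and malic enzyme. In this list 8 of 10 genes fell and 0 rose (median -1.13; without FL11 8 and -1.18). Me1, cytosolic malic enzyme, read 155, 140.2, 163, 157 and 157 CPM in FL_KO against 532 to 915 CPM (median 640.2) in GC_KO. The FL_KO mice were close together and all below the ground mice. Me1 fell by 2.18 ± 0.12 (adjusted p = 1.41e-10), Pgd, 6-phosphogluconate dehydrogenase, by 2.33 ± 0.17 (adjusted p = 2.05e-09), Tkt, transketolase, by 1.76 ± 0.16 (adjusted p = 5.03e-08), and Taldo1, transaldolase, by 1.38 ± 0.09 (adjusted p = 6.59e-10).

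Sugar transport and glycolysis were lower. Of 20 genes tested, 14 fell and 2 rose, with FL11 and without it, at a median of -0.998. Slc2a4, the insulin-responsive glucose transporter GLUT4, read 166, 177, 292, 269.9 and 234 CPM in FL_KO against 389 to 679 CPM (median 528) in GC_KO, with no overlap, and fell by 1.20 ± 0.18 (adjusted p = 2.29e-05). Eno1, enolase, fell by 1.89 ± 0.13 (adjusted p = 1.09e-09), Pkm, pyruvate kinase, by 1.59 ± 0.13 (adjusted p = 9.1e-09), Gpi1, glucose-6-phosphate isomerase, by 1.43 ± 0.11 (adjusted p = 5.53e-09), and Ldha, lactate dehydrogenase A, by 1.09 ± 0.10 (adjusted p = 4.48e-08). The 2 genes that rose were Slc2a1, the basal transporter GLUT1, at 0.79 ± 0.22 (adjusted p = 0.00719), and Pfkfb3, which makes the activator of phosphofructokinase. Pfkfb3 read 856, 1188, 909, 600.1 and 678 CPM in FL_KO against 215 to 461 CPM (median 397) in GC_KO, every flight mouse above every ground mouse, and rose by 1.23 ± 0.24 (adjusted p = 0.000392). Slc2a1 remained far less abundant than Slc2a4, at 3.04 against 143 TPM in FL_KO.

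The largest fall of any gene that met the rule was that of Slc2a5, which encodes the fructose transporter GLUT5. It read 0.722, 0, 0.389, 0.319 and 0.263 CPM in FL_KO against 16.6 to 80.2 CPM (median 41.0) in GC_KO. FL02 had no count, and the flight mice averaged 0.164 TPM against 16.8 TPM. The fitted log2 change was -7.08 ± 0.68 (adjusted p = 8.46e-08), whose size depends on how counts near 0 are handled.

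Glycogen genes were mostly lower with TMM. Of 13 tested, 8 fell and 1 rose (8 and 0 without FL11), whereas 6 fell and 5 rose with library size alone, and 6 and 4 on log2(TPM + 1). Gbe1, the branching enzyme, fell by 1.48 ± 0.11 (adjusted p = 3.36e-09), Pygl, glycogen phosphorylase of the liver type, by 1.28 ± 0.14 (adjusted p = 5.31e-07), Ppp1r3b, which targets protein phosphatase 1 to glycogen, by 2.26 ± 0.38 (adjusted p = 9.12e-05), and Ugp2, which makes UDP-glucose, by 0.68 ± 0.11 (adjusted p = 8.89e-05). The one member called higher was Gyg, glycogenin, at 0.36 ± 0.11 (adjusted p = 0.0185), and the call ended when any 1 of FL11 and FL12 was left out (adjusted p = 0.055 to 0.0594).

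Cholesterol synthesis also fell. Of 23 genes, 18 fell and 0 rose, the same counts without FL11, at a median of -1.43 (-1.05 with library size alone). Fdps, farnesyl diphosphate synthase, read 10.5, 9.69, 17.8, 12.7 and 14.6 CPM in FL_KO against 50.6 to 80.9 CPM (median 63.8) in GC_KO, with no overlap. It fell by 2.32 ± 0.18 (adjusted p = 3.6e-09), Nsdhl, which removes a methyl group from sterols, by 2.11 ± 0.18 (adjusted p = 1.59e-08), and Pmvk, phosphomevalonate kinase, by 1.92 ± 0.13 (adjusted p = 1.09e-09). Sqle, squalene epoxidase, fell by 1.86 ± 0.28 (adjusted p = 2.53e-05).

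Triglyceride synthesis was divided. Of 16 genes, 5 fell and 3 rose (4 and 3 without FL11), and the median was -0.13 with TMM and 0.22 with library size alone (4 lower and 9 higher). Gpd1, which makes glycerol 3-phosphate from glycolysis, fell by 1.41 ± 0.13 (adjusted p = 6.27e-08), Agpat2, an acyltransferase, by 1.53 ± 0.19 (adjusted p = 3.36e-06), Lpin1, a phosphatidate phosphatase, by 1.48 ± 0.15 (adjusted p = 2.85e-07), and Mogat1, a monoacylglycerol acyltransferase, by 1.63 ± 0.17 (adjusted p = 2.6e-07). Dgat2, given below, was the fifth that was called lower, and the called members that remain rose. Gpat3, a glycerol-3-phosphate acyltransferase, read 26.0, 25.4, 13.7, 15.4 and 11.8 CPM in FL_KO against 2.82 to 10.5 CPM (median 4.74) in GC_KO, and rose by 1.62 ± 0.35 (adjusted p = 0.00111); a gene model on the opposite strand overlaps it. Aqp7, the glycerol channel, rose by 0.60 ± 0.08 (adjusted p = 8.23e-06), and Pck1, phosphoenolpyruvate carboxykinase of glyceroneogenesis, by 0.94 ± 0.34 (adjusted p = 0.0384). Pck1 read 4014, 3661, 2856, 1917 and 2168 CPM in FL_KO against 634 to 2457 CPM (median 1500.3) in GC_KO. Its ground values were 2434, 2457 and 2236 CPM in mice 01, 02 and 04 and 634, 638 and 765 CPM in mice 09, 11 and 12, so FL11 and FL12 lay inside the ground range although above the ground mice of the same numbers. For Pck1 the call ended when any 1 of FL01, FL02, FL09, GC09, GC11 and GC12 was left out (adjusted p = 0.0542 to 0.101).

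Lipid droplet and lipolysis genes fell little. Plin3 fell by 1.08 ± 0.15 (adjusted p = 1.44e-05), Plin2 by 0.63 ± 0.14 (adjusted p = 0.00136) and Bscl2, the seipin gene, by 0.46 ± 0.08 (adjusted p = 0.000121), and Fitm2, which helps droplets bud, rose by 0.39 ± 0.11 (adjusted p = 0.00948). The lipases Pnpla2 and Lipe were at -0.18 ± 0.06 (adjusted p = 0.0296) and -0.23 ± 0.09 (adjusted p = 0.0429), and Plin5 at -0.34 ± 0.11 (adjusted p = 0.0215). None of these 3 was called with the mouse number as a block (adjusted p = 0.0656, 0.054 and 0.0626), and all 3 had a positive sign with library size alone. For Pnpla2 the call ended when any 1 of FL02, FL11, FL12, GC04 and GC12 was left out (adjusted p = 0.0505 to 0.0853), for Lipe the call ended when any 1 of FL02, FL09, FL11, FL12, GC09, GC11 and GC12 was left out (adjusted p = 0.0638 to 0.11) and for Plin5 the call ended without FL02 (adjusted p = 0.0705). In the whole list 9 of 18 fell and 1 rose, 6 and 1 without FL11, and the median of -0.18 turned to 0.17 with library size alone (7 higher and 2 lower). Dgat2, the last step of triglyceride synthesis, was at -0.37 ± 0.14 (adjusted p = 0.0426), and the call ended when any 1 of FL09, FL11, FL12, GC01, GC02 and GC09 was left out (adjusted p = 0.0658 to 0.119).

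Fatty acid uptake moved in both directions, 6 of 20 genes higher and 6 lower, the same without FL11. Cd36, the fatty acid translocase, read 1686, 1780.5, 1934, 1775 and 2087 CPM in FL_KO against 1267 to 1488 CPM (median 1450.0) in GC_KO, with no overlap, and rose by 0.39 ± 0.07 (adjusted p = 0.000247). Slc27a2, a very-long-chain acyl-CoA synthetase, rose by 1.08 ± 0.19 (adjusted p = 0.000157), Acsl1, the main long-chain acyl-CoA synthetase of fat, by 0.46 ± 0.11 (adjusted p = 0.00311), and Lrp1, a lipoprotein receptor, by 0.68 ± 0.17 (adjusted p = 0.00411). On the lower side Acsl5 fell by 2.34 ± 0.31 (adjusted p = 5.76e-06), Fabp5 by 1.96 ± 0.18 (adjusted p = 4.1e-08), Acsl3 by 0.86 ± 0.13 (adjusted p = 3.99e-05) and Angptl8, an insulin-induced inhibitor of lipoprotein lipase, by 2.07 ± 0.50 (adjusted p = 0.00281). Angptl4, a lipoprotein lipase inhibitor induced by fasting, went the other way. It read 227, 181, 182, 240.0 and 239.8 CPM in FL_KO against 26.6 to 175 CPM (median 86.6) in GC_KO, and rose by 1.24 ± 0.35 (adjusted p = 0.00925). Lpl itself was at 0.29 ± 0.14 (adjusted p = 0.116).

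Genes of pyruvate entry and the TCA cycle were nearly all called lower with TMM. Of 25 genes, 24 fell and 1 rose, with and without FL11, at a median of -0.57. With library size alone 18 fell and 1 rose at a median of -0.22, and on log2(TPM + 1) 13 and 2 at -0.14. Pdhb, a subunit of pyruvate dehydrogenase, read 227, 217, 328, 265 and 275 CPM in FL_KO against 774 to 942 CPM (median 859.9) in GC_KO. It fell by 1.71 ± 0.11 (adjusted p = 4.97e-10), with every flight mouse below every ground mouse. Pdha1, another subunit, fell by 1.33 ± 0.10 (adjusted p = 2.77e-09), Dlat, the acetyltransferase subunit, by 0.998 ± 0.09 (adjusted p = 2.84e-08), and Mpc1, the mitochondrial pyruvate carrier, by 1.47 ± 0.11 (adjusted p = 1.74e-09). Idh2, the NADP-dependent isocitrate dehydrogenase of mitochondria, was the member that rose, at 0.41 ± 0.09 (adjusted p = 0.00156). Pdk4, which inhibits pyruvate dehydrogenase, read 2378, 1922, 1299.8, 1278 and 1337 CPM in FL_KO against 315 to 1890.2 CPM (median 633) in GC_KO. It was at 1.01 ± 0.39 (adjusted p = 0.0494), but the call ended when any 1 of FL01, FL02, FL09, FL11, FL12, GC04, GC09, GC11 and GC12 was left out (adjusted p = 0.0502 to 0.128), and with the mouse number as a block it was at 1.39 (adjusted p = 0.0028).

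Most nuclear genes of the respiratory chain were lower. Of 83 nuclear subunits tested, 74 fell and 1 rose, and without FL11 73 and 0; the one that rose, Cox6a2, is the muscle form of its subunit and was carried by FL11. For Cox6a2 the call ended when any 1 of FL11, GC01, GC02, GC04, GC09 and GC11 was left out (adjusted p = 0.0508 to 0.975). The median was -0.54 with TMM and -0.19 with library size alone, where 41 fell and 5 rose. Ndufs8, of complex I, fell by 1.18 ± 0.09 (adjusted p = 2.05e-09), Uqcrc2, of complex III, by 0.94 ± 0.07 (adjusted p = 2.05e-09), and Ndufa9 by 0.71 ± 0.06 (adjusted p = 4.74e-08). Cox7a1 and Cox8b, subunits typical of brown fat and muscle, fell by 1.04 ± 0.13 (adjusted p = 2.28e-06) and 0.70 ± 0.12 (adjusted p = 0.00012).

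Genes of the mitochondrial genome were lower as well, 9 of 13 (8 without FL11), with a median of -0.56. Their share of all counts was 28.7 to 30.5% in GC_KO and 26.6 to 30.2% in FL_KO, so that the ranges of the shares overlapped. mt-Nd1 was at -0.86 ± 0.11 (adjusted p = 2.71e-06) and mt-Nd2 at -0.64 ± 0.08 (adjusted p = 4.68e-06). Several nuclear copies of mitochondrial genes are in the table and RSEM divides reads between near-identical sequences, so the values of single mitochondrial genes are uncertain. Mitochondrial ribosomal proteins fell in 62 of 76 cases (56 without FL11), with a median of -0.39, which shrank to -0.03 with library size alone (15 lower and 11 higher) and to 0.03 on log2(TPM + 1). Proteasome subunits behaved likewise, 30 of 37 lower (29 without FL11) at a median of -0.38, against -0.03 with library size alone (7 lower and 1 higher) and 0.05 on log2(TPM + 1).

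Mitochondrial β-oxidation genes fell in 15 of 22 cases and rose in 3 (13 and 2 without FL11). The median of -0.31 became 0.04 with library size alone (7 higher and 4 lower), below the 0.40 of all genes on that scale. Hadha and Hadhb, the 2 subunits of the trifunctional protein, were at -0.66 ± 0.07 (adjusted p = 8.32e-07) and -0.66 ± 0.06 (adjusted p = 2.71e-08), and Cpt2, carnitine palmitoyltransferase 2, at -0.66 ± 0.07 (adjusted p = 5.34e-07). Cpt1b, which admits long-chain fatty acids to mitochondria, was at -0.19 ± 0.11 (adjusted p = 0.178). Acot2, a mitochondrial thioesterase, rose by 0.67 ± 0.13 (adjusted p = 0.00046). In the peroxisome list, 10 of 32 fell and 2 rose, with a median of -0.15 that was 0.21 with library size alone (13 higher and 3 lower). Ehhadh, the bifunctional enzyme of peroxisomal β-oxidation and a classical PPARα target, read 210.0, 169.8, 143, 132 and 97.4 CPM in FL_KO against 25.6 to 88.3 CPM (median 52.7) in GC_KO. All flight mice were above all ground mice, and Ehhadh rose by 1.44 ± 0.32 (adjusted p = 0.00148). Acot1, a cytosolic thioesterase next to Acot2 and close to it in sequence, rose by 1.65 ± 0.39 (adjusted p = 0.00247).

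**Figure D3:**
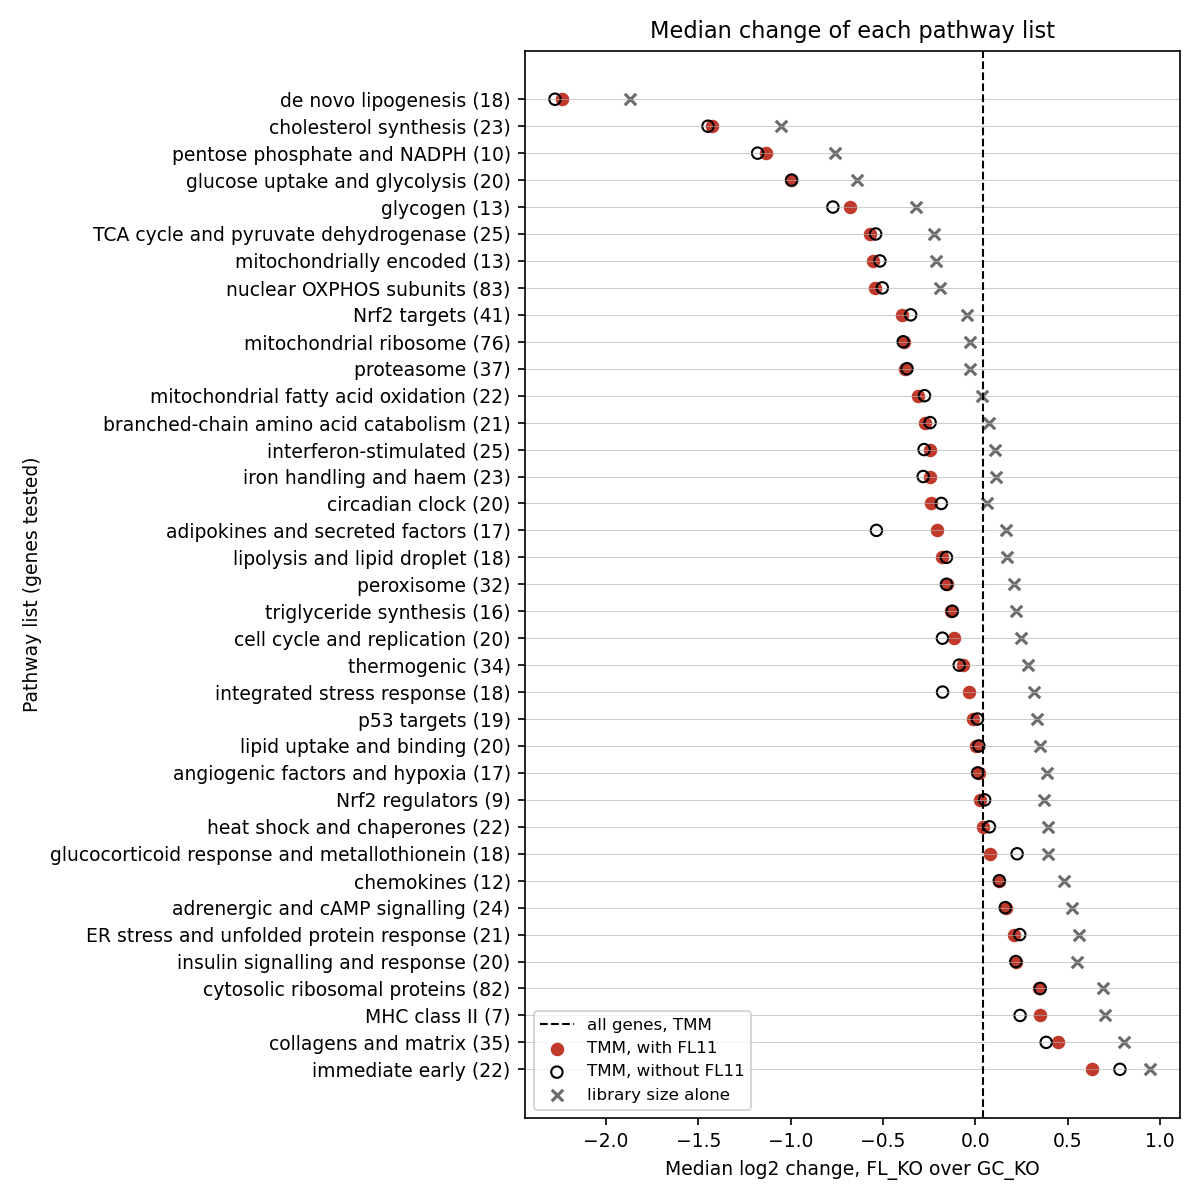
Median log2 change (FL_KO over GC_KO) of each pathway list with TMM scaling, with FL11 (filled circles) and without it (open circles), and with library size alone (crosses), ordered by the TMM median; the dashed line is the median of all genes tested with TMM. Lipogenesis at -2.24 lies lowest, and the crosses lie to the right of the circles by about the shift of the median gene.

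Thermogenic genes did not move as one group. Of 34 tested, 5 rose and 8 fell (5 and 7 without FL11), with a median of -0.07 that was 0.28 with library size alone (10 higher and 6 lower). Ucp1 read 1403, 2284, 4724, 2624 and 2952 CPM in FL_KO against 2240.0 to 3764 CPM (median 3006) in GC_KO. FL01 was below every ground mouse and FL09 above every ground mouse, and the change of -0.11 ± 0.23 (adjusted p = 0.739) did not pass the test. Among mice numbered 06 and below it was -0.86 (adjusted p = 0.02) and among those above 06 it was 0.30 (adjusted p = 0.43), a difference that was not itself tested. Prdm16, a fate regulator of brown fat, was at 0.06 ± 0.24 (adjusted p = 0.868), Adrb3, the β3-adrenergic receptor, at 0.22 ± 0.19 (adjusted p = 0.382), and Cidea at -0.32 ± 0.11 (adjusted p = 0.0263), but the call ended when any 1 of FL11, FL12, GC01 and GC09 was left out (adjusted p = 0.051 to 0.0843).

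Several members passed the test in opposite directions. Ppargc1a, the coactivator PGC-1α that drives mitochondrial genes, read 97.1, 178, 81.5, 44.0 and 65.0 CPM in FL_KO against 22.8 to 52.8 CPM (median 31.0) in GC_KO. It rose by 1.41 ± 0.50 (adjusted p = 0.0343), and of the flight mice FL11 lay inside the ground range. For Ppargc1a the call ended when any 1 of FL01, FL02, GC01, GC09, GC11 and GC12 was left out (adjusted p = 0.0533 to 0.137). Dio2, which activates thyroid hormone, read 265, 511, 332, 85.8 and 142 CPM in FL_KO against 38.4 to 288 CPM (median 219) in GC_KO, at 0.57 ± 0.54 (adjusted p = 0.434), and was called with the mouse number as a block (0.92, adjusted p = 0.0247). Ppara, the nuclear receptor PPARα, Gk, glycerol kinase, and Slc6a8, the creatine transporter, rose by 1.02 ± 0.33 (adjusted p = 0.0193), 0.999 ± 0.25 (adjusted p = 0.00415) and 0.97 ± 0.15 (adjusted p = 5.78e-05). The change of Gk was -0.03 among mice numbered 06 and below and 1.59 among those above 06. Elovl3, a cold-induced fatty acid elongase, read 15.6, 28.4, 78.2, 48.8 and 28.2 CPM in FL_KO against 113 to 210.1 CPM (median 174) in GC_KO. It fell by 2.04 ± 0.28 (adjusted p = 1.28e-05), Acot11, a cold-induced thioesterase, by 2.15 ± 0.24 (adjusted p = 5.38e-07), and Letmd1, needed for brown fat mitochondria, by 0.91 ± 0.10 (adjusted p = 4.87e-07). In the adrenergic list 6 of 24 rose (5 without FL11) and 1 fell, where Adcy4 and Adcy6, adenylyl cyclases, rose by 0.70 ± 0.11 (adjusted p = 5.63e-05) and 0.42 ± 0.11 (adjusted p = 0.00466), Akap1, a mitochondrial anchor of protein kinase A, by 0.55 ± 0.13 (adjusted p = 0.00179), and Adcy10, the soluble adenylyl cyclase, fell by 3.28 ± 0.29 (adjusted p = 2.49e-08) from 2.47 TPM to 0.348 TPM.

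Nrf2 target genes were described in mice that lack NRF2. Of 47 genes of the list, 41 were tested, 20 fell and 3 rose, with FL11 and without it, at a median of -0.40 (-0.05 with library size alone and 0.02 on log2(TPM + 1)). The calls were 10 lower and 10 higher with library size alone and 9 and 12 on log2(TPM + 1). The 4 that fell with the smallest adjusted p, Me1, Pgd, Tkt and Taldo1, are the NADPH genes given above. Gstm1, a glutathione transferase, was at -0.51 ± 0.09 (adjusted p = 0.000167), with no overlap on CPM, and at -0.16 with library size alone. The 3 that rose, Gss and Gclc of glutathione synthesis and Ftl1, the ferritin light chain, were at 0.53 ± 0.08 (adjusted p = 2.6e-05), 0.41 ± 0.09 (adjusted p = 0.00172) and 0.32 ± 0.08 (adjusted p = 0.00558). Hmox1, haem oxygenase 1, read 16.5, 22.6, 6.50, 6.97 and 7.68 CPM in FL_KO against 4.12 to 11.6 CPM (median 5.78) in GC_KO; it was at 0.79 ± 0.49 (adjusted p = 0.22) and was called with the mouse number as a block (0.70, adjusted p = 0.0448) or with a 2-level term for numbers above 06 against 06 and below (0.83, adjusted p = 0.0106). Gsta3 was at -1.01 ± 0.71 (adjusted p = 0.283). Nqo1, the classical NRF2 target, gave 3 to 8 counts in FL_KO and 0 to 8 in GC_KO and was not tested, and in the wild-type groups it gave no more than 10 counts.

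Among partners of NRF2, Nfe2l1, the related factor NRF1 that drives proteasome genes, rose by 0.25 ± 0.05 (adjusted p = 0.00103), Mafk, a small MAF partner, by 0.72 ± 0.23 (adjusted p = 0.0194) and Bach2, a repressor of the same sites, by 0.99 ± 0.29 (adjusted p = 0.0127), while Keap1 was at -0.22 ± 0.07 (adjusted p = 0.024), a call that was lost with the mouse number as a block (adjusted p = 0.127) and a sign that turned with library size alone (0.14). For Keap1 the call ended when any 1 of FL01, FL02, GC01 and GC02 was left out (adjusted p = 0.051 to 0.0706), for Mafk the call ended when any 1 of FL01 and FL02 was left out (adjusted p = 0.0677 to 0.0853) and for Bach2 the call ended without FL01 (adjusted p = 0.0557). Gpx3, the secreted glutathione peroxidase, was not in a list and came in through the interaction rule. It read 2511, 3015, 2363, 1984 and 2445 CPM in FL_KO against 1018 to 1245 CPM (median 1099) in GC_KO, every flight mouse above every ground mouse, and rose by 1.15 ± 0.11 (adjusted p = 8.97e-08) to 2420.1 TPM.

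Cytosolic ribosomal protein genes rose in 51 of 82 cases and fell in 2 (53 and 1 without FL11), at a median of 0.34, and the sign was the same on every scale (0.69 with library size alone). Rplp0 read 267, 317, 268, 269 and 260.2 CPM in FL_KO against 184 to 201 CPM (median 195) in GC_KO, without overlap, and rose by 0.51 ± 0.07 (adjusted p = 8.88e-06). Rpl4, Rpl8 and Rps18 rose by 0.50 ± 0.07 (adjusted p = 1.08e-05), 0.51 ± 0.08 (adjusted p = 2.35e-05) and 0.63 ± 0.09 (adjusted p = 2.25e-05). Pseudogene copies of ribosomal protein genes share reads with them, which limits the precision of single members.

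Genes of the unfolded protein response rose in 10 of 21 cases and fell in 1 (8 and 1 without FL11), and 6 rose without FL02. Hsp90b1, the chaperone GRP94 of the endoplasmic reticulum, was at 0.52 ± 0.08 (adjusted p = 6.72e-05), and Ern1, the sensor IRE1α, at 0.37 ± 0.08 (adjusted p = 0.000665), both without overlap between groups. Herpud1, of the degradation arm, fell by 0.54 ± 0.15 (adjusted p = 0.00847). In the integrated stress response list, 2 rose and 6 fell of 18, with a median of -0.03 that was 0.32 with library size alone (7 higher and 2 lower). Pck2, mitochondrial phosphoenolpyruvate carboxykinase, rose by 1.14 ± 0.13 (adjusted p = 7.16e-07) and Sesn2, sestrin 2, by 1.13 ± 0.29 (adjusted p = 0.00426), whereas Psph, of serine synthesis, fell by 0.93 ± 0.14 (adjusted p = 2.29e-05), Asns, asparagine synthetase, by 0.54 ± 0.11 (adjusted p = 0.000479) and Atf5 by 0.74 ± 0.18 (adjusted p = 0.00298). Fgf21, a stress-induced hormone, averaged 1.83 TPM in GC_KO and 0.33 TPM in FL_KO and was at -2.87 ± 0.77 (adjusted p = 0.00653). The groups overlapped, since ground mice 01, 02 and 04 gave 0.209, 0.0714 and 0.497 CPM and ground mice 09, 11 and 12 gave 3.18, 2.64 and 2.02 CPM.

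Insulin signalling genes rose in 7 of 20 cases and fell in 2 (5 and 2 without FL11). Without FL02 3 rose, without GC09 or GC11 4 rose, and with only the knockout groups in the fit 3 rose and 3 fell. Akt1 rose by 0.58 ± 0.12 (adjusted p = 0.000579), Igf1r by 0.39 ± 0.12 (adjusted p = 0.0131) and Socs3, an inhibitor of cytokine and insulin signalling, by 1.34 ± 0.28 (adjusted p = 0.00102). The 2 that fell were Pik3cb, a catalytic subunit of PI 3-kinase, at -0.66 ± 0.13 (adjusted p = 0.000352), and Pik3r1, its main regulatory subunit, at -1.10 ± 0.30 (adjusted p = 0.00694). Branched-chain amino acid catabolism fell in 14 of 21 cases and rose in 2 (1 without FL11 and 0 without FL09), with a median of -0.27 that became 0.08 with library size alone (6 higher and 4 lower); Bckdha, of the branched-chain dehydrogenase, was at -0.62 ± 0.06 (adjusted p = 1.28e-07) and Pcca, of propionyl-CoA carboxylase, at -0.74 ± 0.07 (adjusted p = 4.74e-08). In the haem and iron list 10 of 23 fell (8 without FL11) and 3 rose, with a median of -0.25 that was 0.11 with library size alone (6 higher and 3 lower). Alas1, the first enzyme of haem synthesis, fell by 1.22 ± 0.20 (adjusted p = 6.87e-05), and Slc40a1, the iron exporter ferroportin, rose by 2.03 ± 0.34 (adjusted p = 0.000107), with no overlap.

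The mouse number moved with many genes, in flight and on the ground alike. Mice numbered 01, 02 and 04 stood against those numbered 09, 11 and 12. The number is part of the sample labels, no animal was both flown and kept on the ground, and what the number stands for is not given in the sources used here. Its part in other results was not tested beyond the values given here. Per1, a clock gene also induced by glucocorticoids, read 143, 130.1, 20.9, 9.69 and 10.9 CPM in FL_KO against 17.2 to 139 CPM (median 70.3) in GC_KO, and in GC_KO 120.0, 139 and 93.4 CPM in mice 01, 02 and 04 but 47.1, 17.2 and 17.8 CPM in mice 09, 11 and 12. Both groups were thus high at low numbers and low at high numbers. A term for numbers above 06 against 06 and below was added after the values were seen. It was fitted over all 23 libraries, so knockout and wild-type mice share it and its calls are not results of the knockout alone. This term called 1903 genes higher (14%) and 1856 lower (13.7%) at the higher numbers. With this term flight was called for 2783 genes higher (20.5%) and 2657 lower (19.6%).

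Many genes of some lists were called with the number in that fit of both genotypes. In the clock list 12 of 20 genes were lower and 6 higher at high numbers. Genes lower at high numbers were also called in the lists of glucocorticoid response and metallothionein (12 of 18 lower), immediate early genes (12 of 22 lower) and heat shock genes (8 of 22 lower). Endothelial markers (8 higher and 4 lower of 16), p53 targets (6 and 5 of 19), insulin signalling (2 and 8 of 20) and peroxisome genes (1 and 14 of 32) moved with the number too. Arntl, the clock activator BMAL1, read 2.53, 13.6, 29.0, 27.2 and 29.0 CPM in FL_KO against 5.10 to 21.2 CPM (median 13.5) in GC_KO, and the order was opposite to that of Per1. Fkbp5, a glucocorticoid-induced chaperone, read 136, 83.2, 23.2, 25.3 and 17.2 CPM in FL_KO against 22.6 to 112 CPM (median 40.4) in GC_KO. Hspa1a, which encodes an inducible HSP70 chaperone, read 243, 611, 3.001, 32.2 and 3.47 CPM in FL_KO against 3.69 to 171 CPM (median 34.4) in GC_KO. In GC_KO its values were 171, 128 and 63.2 CPM in mice 01, 02 and 04 and 3.69, 4.77 and 5.65 CPM in mice 09, 11 and 12. Hspa1a and its neighbour Hspa1b are near-identical and share reads. In lipogenesis the number called 6 genes higher and 0 lower, at a median of 0.17, while the median of the flight change with the number in the fit was -2.27. Fasn was at -3.34 among mice numbered 06 and below and at -3.61 among those above 06, and Acly at -4.12 and -4.66.

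**Figure D4:**
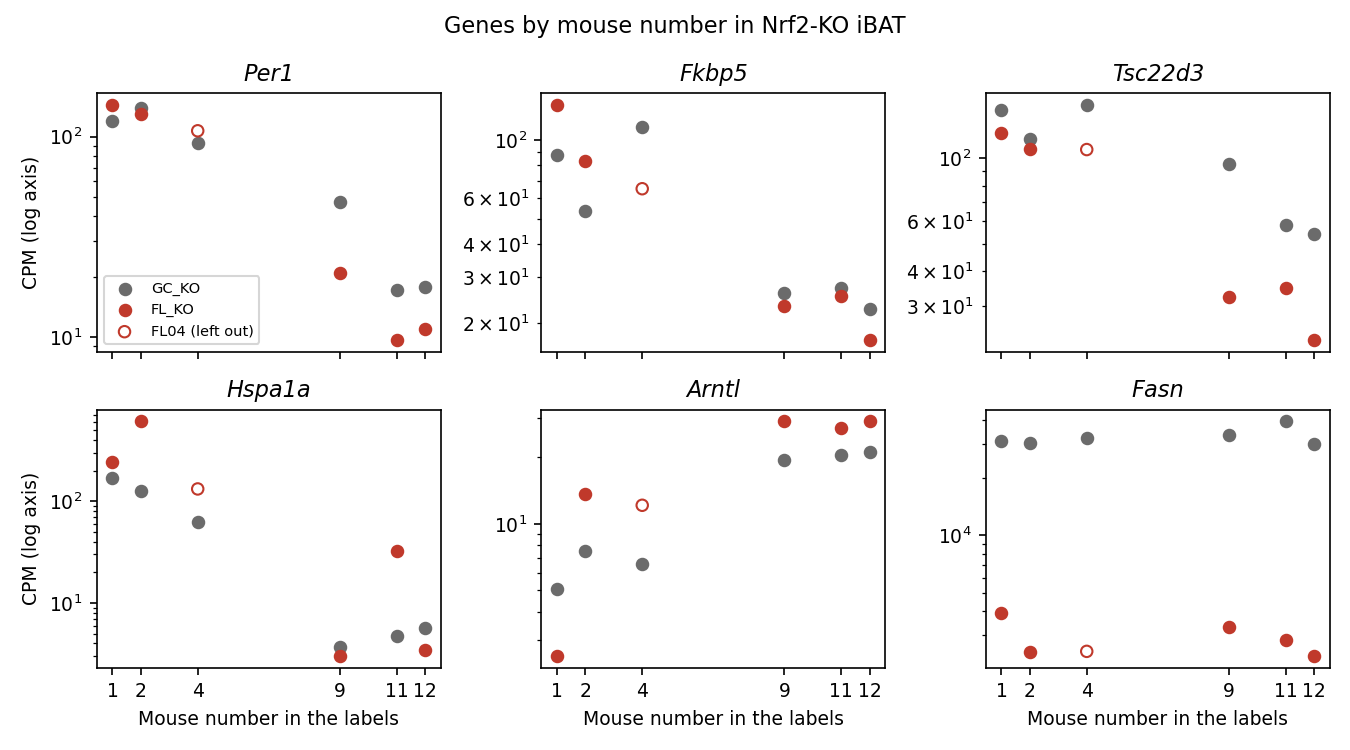
CPM of 6 genes in each KO mouse against the mouse number in the labels, on a log axis, GC_KO in grey and FL_KO in red (FL04, left out of the tests, as an open circle). Per1, Fkbp5, Tsc22d3 and Hspa1a are higher in mice 01, 02 and 04 than in mice 11 and 12 in both groups, Arntl is lower, and Fasn follows the group and not the number.

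Between flight and ground, fewer genes of the clock, glucocorticoid and heat shock lists were called. With the number term in the fit, flight was called for 2 clock genes higher and 4 lower. The counts were 2 and 3 for the glucocorticoid and metallothionein list and 1 and 1 for heat shock genes. The values that follow are from the main fit, without that term, unless another fit is named. In the clock list 3 of 20 genes fell and 0 rose (2 fell without FL11; with the number as a block 4 fell and 2 rose), and the median of -0.24 was 0.06 with library size alone (3 higher and 2 lower). Bhlhe40, a clock repressor that insulin and many stimuli induce, read 27.8, 23.7, 23.8, 30.3 and 41.8 CPM in FL_KO against 82.4 to 329 CPM (median 209) in GC_KO. All flight mice lay below all ground mice, and Bhlhe40 fell by 2.80 ± 0.47 (adjusted p = 0.00011). Arntl, Dbp, Nr1d1 and Per1 were at 0.60 ± 0.54 (adjusted p = 0.411), -0.44 ± 0.57 (adjusted p = 0.584), -0.04 ± 0.38 (adjusted p = 0.951) and -0.20 ± 0.76 (adjusted p = 0.862). Of glucocorticoid and metallothionein genes, Fkbp5, Mt1 and Mt2 were at 0.05 ± 0.63 (adjusted p = 0.956), -0.34 ± 0.27 (adjusted p = 0.365) and 0.15 ± 0.52 (adjusted p = 0.854). Tsc22d3, a glucocorticoid-induced leucine zipper gene, was at -0.70 ± 0.41 (adjusted p = 0.192) and was called with the number as a block (-0.77, adjusted p = 0.00496). Hsd11b1, which regenerates active glucocorticoid, fell by 0.85 ± 0.12 (adjusted p = 1.37e-05) without overlap. Hspa1a was at 1.51 ± 1.19 (adjusted p = 0.347), and of 22 heat shock genes 1, Hspb8, fell and 0 rose (7 fell without FL02). Hspb8, a small heat shock protein, fell by 1.04 ± 0.20 (adjusted p = 0.00051).

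Of 22 immediate early genes 8 rose, with and without FL11, and 14 rose with the number as a block. Without FL01 1 rose and 1 fell, and without GC09 4 rose. Egr3, a zinc-finger factor, read 0.962, 0.294, 0.222, 1.06 and 1.26 CPM in FL_KO against 0 to 0.214 CPM (median 0.106) in GC_KO, a mean of 0.392 TPM in FL_KO, and rose by 2.76 ± 0.57 (adjusted p = 0.000765). Fosb, an AP-1 subunit, read 20.1, 6.23, 2.11, 5.59 and 2.42 CPM in FL_KO against 0.506 to 2.58 CPM (median 1.15) in GC_KO. FL01 was the highest and FL09 and FL12 lay in the ground range, and Fosb rose by 2.54 ± 0.71 (adjusted p = 0.00847). Myc rose by 1.41 ± 0.41 (adjusted p = 0.0105) and Jund by 0.65 ± 0.21 (adjusted p = 0.0214). For Fosb the call ended without FL01 (adjusted p = 0.0598), for Myc the call ended without FL01 (adjusted p = 0.0592) and for Jund the call ended when any 1 of FL01, FL02, GC09 and GC11 was left out (adjusted p = 0.0506 to 0.0788).

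Marker genes of other cell types were read in the same libraries. Macrophage markers rose in 10 of 18 cases (7 without FL11) and fell in 0, with a median of 0.66. Their summed level was 106 to 178 CPM in FL_KO and 66.4 to 113 CPM in GC_KO, so the sums overlapped. Adgre1, the F4/80 antigen, read 2.29, 2.94, 2.45, 4.31 and 6.26 CPM in FL_KO against 1.23 to 2.07 CPM (median 1.57) in GC_KO, all flight mice above all ground mice, and rose by 1.18 ± 0.28 (adjusted p = 0.00246). Cd68 read 4.93, 2.82, 2.28, 4.37 and 5.95 CPM in FL_KO against 1.74 to 2.72 CPM (median 2.39) in GC_KO, with overlap, and rose by 0.83 ± 0.25 (adjusted p = 0.0129), but the call ended without FL12 (adjusted p = 0.0526). Lyz2 and C1qb rose by 0.88 ± 0.22 (adjusted p = 0.00411) and 0.72 ± 0.19 (adjusted p = 0.00578). The TPM of these genes was low, 5.48 TPM for Cd68 in FL_KO.

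Collagen and matrix genes rose in 13 of 35 cases and fell in 0 (11 rose without FL11), and 2 members were higher in every FL_KO mouse than in any GC_KO mouse, as were 7.15% of all genes tested. Col12a1 rose by 1.62 ± 0.27 (adjusted p = 7.74e-05), Col6a3 by 0.998 ± 0.22 (adjusted p = 0.00135), Loxl2, which cross-links collagen, by 0.93 ± 0.20 (adjusted p = 0.00092) and Col4a2, of the basement membrane, by 0.67 ± 0.14 (adjusted p = 0.000786). Of 9 smooth muscle and pericyte markers tested, 2 were called higher and 0 lower, with and without FL11, where 17% of all genes were called higher. Their summed level was 632 to 958 CPM in FL_KO (at most 710 CPM without FL11) and 502 to 633 CPM in GC_KO. The called members, Acta2 and Tagln, rose by 0.99 ± 0.22 (adjusted p = 0.00173) and 0.82 ± 0.22 (adjusted p = 0.00694). Markers of fibroblasts and adipocyte progenitors were called for 1 of 14 genes and endothelial markers for 2 of 16 (1 without FL11 and 6 without GC12), all higher; without GC11 3 fibroblast and progenitor markers were called. Pecam1 was at 0.29 ± 0.11 (adjusted p = 0.0437), but the call ended when any 1 of FL02, FL11, FL12, GC01, GC02, GC04 and GC11 was left out (adjusted p = 0.0578 to 0.104). S100b, listed with Schwann cell markers but also made by adipocytes, fell by 1.77 ± 0.20 (adjusted p = 8.97e-07).

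Red cell genes were lower. Of 7 erythroid genes tested, 5 fell, with and without FL11, at a median of -1.06. Hbb-bs, a β-globin gene, read 79.6, 84.5, 86.1, 53.7 and 51.2 CPM in FL_KO against 105 to 190.1 CPM (median 145) in GC_KO, without overlap, and fell by 1.06 ± 0.18 (adjusted p = 9.68e-05). The summed level was 146 to 238 CPM in FL_KO and 257 to 507 CPM in GC_KO. Globin genes are near-identical within each cluster, so single members share reads. T cell, B cell and neutrophil markers summed to at most 6.66, 12.5 and 3.49 CPM in GC_KO, and none of their tested members was called; the B cell sum was 74.7 CPM in FL11 and at most 3.88 CPM in the other FL_KO mice. Without FL11, 1 B cell gene was called lower. With the muscle level as a covariate 2299 genes were called higher and 2268 lower. The part of macrophages or blood in the other results was not tested.

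The lists not described above are given for completeness. Interferon-stimulated genes fell in 3 of 25 cases, with a list median of -0.25 that was 0.11 with library size alone (4 higher and 0 lower). In the chemokine list 3 of 12 rose, with Cx3cl1 at 1.29 ± 0.30 (adjusted p = 0.00246), and 2 fell (0 fell without FL01 or FL02, and 5 rose without FL09). Cell cycle genes were called for 1 of 20 and MHC class II genes for 0 of 7. The cell cycle gene was Rrm1, of ribonucleotide reductase, at -0.75 ± 0.12 (adjusted p = 3.83e-05). With library size alone the medians of the cell cycle, p53 and adipokine lists turned from -0.11, -0.01 and -0.21 to 0.24, 0.34 and 0.17. p53 targets rose in 2 and fell in 3 (4 without FL11) of 19 cases, with Phlda3 at -1.19 ± 0.27 (adjusted p = 0.00174). In the angiogenic list 1 of 17 rose and 3 fell (2 and 1 without FL11, and 0 fell without FL01 or FL02), and Vegfa was at -0.10 ± 0.07 (adjusted p = 0.329), with a sign that turned with library size alone (0.25). In the adipokine list 2 of 17 rose and 5 fell, and 2 and 5 of 18 without FL11. With only the knockout groups in the fit 3 fell, and with the number as a block 7 fell. With library size alone 5 rose and 4 fell. Adipoq, adiponectin, was at 0.35 ± 0.10 (adjusted p = 0.00878), and Rbp4, retinol-binding protein 4, at -1.69 ± 0.20 (adjusted p = 1.29e-06).

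The largest changes, by the rule of no overlap, at least 5 TPM in 1 group and a call without FL11, included genes outside these lists. Cntfr, the receptor of ciliary neurotrophic factor, read 65.0, 60.1, 64.4, 52.9 and 57.0 CPM in FL_KO against 3.61 to 11.9 CPM (median 7.89) in GC_KO. It rose by 2.95 ± 0.27 (adjusted p = 5.44e-08), the most of any gene under the rule, from 4.58 to 47.7 TPM. Slc7a8, an amino acid transporter, read 9.20, 10.6, 19.5, 17.0 and 11.9 CPM in FL_KO against 1.88 to 5.32 CPM (median 3.03) in GC_KO, and rose by 2.07 ± 0.30 (adjusted p = 2.39e-05). Cyp4b1, a fatty acid hydroxylase, Peg3, an imprinted zinc-finger gene, and Il6ra, the interleukin 6 receptor, rose by 1.77 ± 0.19 (adjusted p = 3.53e-07), 1.72 ± 0.35 (adjusted p = 0.000707) and 1.51 ± 0.26 (adjusted p = 0.000151).

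On the lower side, Ttc25, a gene of motile cilia, read 0.361, 0.47, 0.667, 0.639 and 0.631 CPM in FL_KO against 18.9 to 56.6 CPM (median 44.6) in GC_KO. It fell by 6.16 ± 0.44 (adjusted p = 1.62e-09). Ttc25 lies 17607 bases from Acly on the opposite strand, with Cnp (0.31) and Dnajc7 (0.27) nearby. Sycp3, a meiotic chromosome axis gene, read 1.74, 1.41, 1.501, 0.852 and 1.16 CPM in FL_KO against 11.6 to 20.1 CPM (median 13.3) in GC_KO, and fell by 3.49 ± 0.55 (adjusted p = 5e-05); it overlaps Chpt1 on the opposite strand. The gene models Gm32468, 2310069B03Rik and Gm5182 fell by 4.44 ± 0.44 (adjusted p = 1.4e-07), 4.34 ± 0.34 (adjusted p = 4.37e-09) and 3.50 ± 0.38 (adjusted p = 4.42e-07).

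Knockout and wild-type mice were then set side by side. In FL_WT against GC_WT, 1199 of the same genes were called higher (8.83%) and 1401 lower (10.3%). The lipogenic list fell in 15 of 18 cases in wild type at a median of -1.5003, against -2.24 in the knockout. Fasn was at -2.56 ± 0.23 (adjusted p = 2.15e-07) in wild type, Acly at -3.26 ± 0.30 (adjusted p = 2.72e-07), Slc25a1 at -1.47 ± 0.14 (adjusted p = 3.11e-07) and Acss2 at -1.42 ± 0.15 (adjusted p = 1.29e-06). For pyruvate dehydrogenase, Pdhb was at -1.03 ± 0.10 (adjusted p = 3.79e-07) and Dlat at -0.43 ± 0.08 (adjusted p = 0.00082). Nuclear respiratory subunits had a median of -0.42, cytosolic ribosomal proteins of 0.14 (12 called higher) and macrophage markers of 0.11 (0 called). These medians were not tested against those of the knockout. Scd1, Fasn and Acly together took 3.67 to 6.74% of the counts in GC_WT and 1.48 to 1.89% in FL_WT. In GC_KO they took 6.69 to 8.49%, and in FL_KO 1.64 to 3.95%. The summed share on the ground was thus mostly higher in the knockout than in wild type, and in flight the ranges of the genotypes overlapped. Scd1 made up most of the sum in FL_KO, so the sum does not show where Fasn or Acly ended. Whether the ground level bears on the size of the fall was not tested.

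The difference between the 2 flight responses was tested gene by gene as an interaction. With edgeR 0 genes were called (0%), 1127 had an unadjusted p under 0.05, and DESeq2 called 99 (it gave 6579 genes no adjusted p), of which 79 were more negative in the knockout and 20 more positive. With the mouse number as a block edgeR called 5, without FL11 0, without FL09 10, without GC12 4 and without FL11, FL06 and FL08 0. With the 2-level number term added after the values were seen it called 49 (0.361%), 39 more negative in the knockout and 10 more positive, of which 35 were also called by DESeq2 without that term.

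The 5 genes with the smallest p of the interaction were Pla2g15, Acsf3, Nsun4, Gpx3 and Pfkl. Pla2g15, a lysosomal phospholipase, read 28.7, 24.5, 32.3, 26.6 and 31.4 CPM in FL_KO against 10.1 to 16.3 CPM (median 11.9) in GC_KO. It rose by 1.21 ± 0.14 (adjusted p = 7.16e-07) in the knockout and was at 0.09 ± 0.13 (adjusted p = 0.692) in wild type (difference 1.12, unadjusted p = 4.26e-06, adjusted p = 0.0578), and this difference was called with the mouse number as a block (1.12, adjusted p = 0.0247). Gpx3 rose by 1.15 ± 0.11 (adjusted p = 8.97e-08) against 0.35 ± 0.11 (adjusted p = 0.023) (difference 0.80, unadjusted p = 2.95e-05, adjusted p = 0.0722). Acsf3, mitochondrial malonyl-CoA synthetase, was at -1.05 ± 0.10 (adjusted p = 4.74e-08) against -0.34 ± 0.09 (adjusted p = 0.00992) (difference -0.71, unadjusted p = 1.73e-05, adjusted p = 0.0722). Pfkl, phosphofructokinase of the liver type, read 357, 461, 484, 365 and 439.6 CPM in FL_KO against 689 to 909.5 CPM (median 851) in GC_KO, without overlap, and was at -0.98 ± 0.11 (adjusted p = 5.03e-07) against -0.23 ± 0.10 (adjusted p = 0.108) (difference -0.75, unadjusted p = 3.52e-05, adjusted p = 0.0722). Nsun4, a methyltransferase of mitochondrial ribosomal RNA, was at -0.69 ± 0.07 (adjusted p = 2.01e-07) against -0.18 ± 0.07 (adjusted p = 0.0634) (difference -0.51, unadjusted p = 2.49e-05, adjusted p = 0.0722). With the 2-level number term all 5 were called (adjusted p = 0.0128, 0.0361, 0.0128, 0.0361 and 0.0128, in the order just given). Among genes named above, Slc25a1, Acss2, Pgd, Taldo1, Pdhb, Dlat, Uqcrc2, Cpt2, Agpat2 and Letmd1, which fell further in the knockout than in wild type, were called with that term as well, and so was Slc7a8, at 2.07 in the knockout and 0.08 ± 0.27 (adjusted p = 0.865) in wild type. Sycp3 was at -0.39 ± 0.48 (adjusted p = 0.619) in wild type (difference -3.09, unadjusted p = 0.000276, adjusted p = 0.0969).

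**Figure D5:**
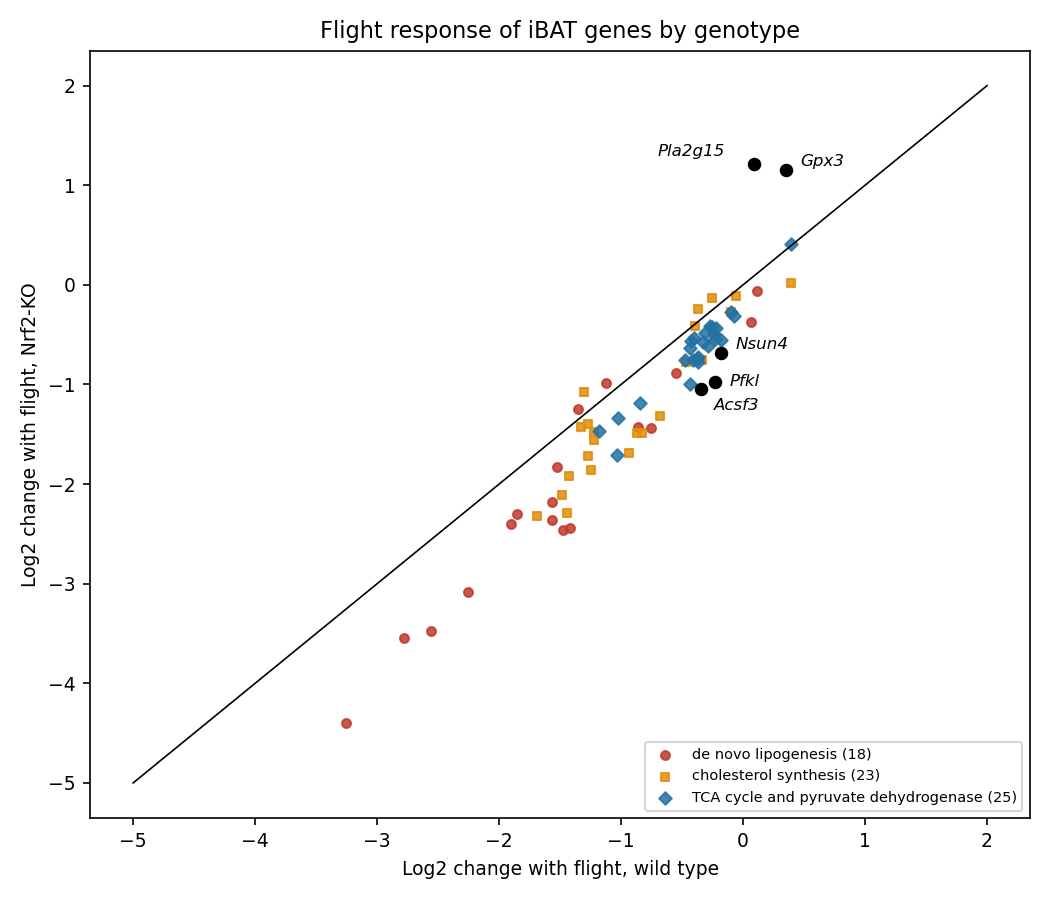
Log2 change with flight in Nrf2-KO (vertical axis) against wild type (horizontal axis) for members of the lipogenesis, cholesterol synthesis, and TCA cycle and pyruvate dehydrogenase lists and for the 5 genes with the smallest interaction p (black, named); the line marks equal changes. Of 18, 23 and 25 members drawn, 16, 20 and 24 lie below the line, a description and not a test, and Pla2g15 and Gpx3 lie above it.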

How the data were processed

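The 24 iBAT RNA-seq libraries of the series, 1 per mouse, were used, and 23 of them entered the tests. Per the labels and the study's methods, reads were mapped with STAR 2.6.1 and quantified with RSEM 1.3.1. The authors deposited 1 table of RSEM expected counts, TPM and FPKM per gene. Expected counts are estimated counts that need not be whole, and TPM is corrected for transcript length within each library. It lists 54752 identifiers, 93 symbols are used more than once, and 528 columns (other tissues, and FPKM) were not used. Of the identifiers, 54723 were found in GENCODE vM21, from which GRCm38 positions were taken. RefSeq promoter sequences are those of GRCm38.p6.

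Expected counts were rounded to whole numbers and filtered with filterByExpr by group, which left 13574 genes. edgeR 4.0.16 (quasi-likelihood, TMM) in R 4.3.3 was fitted to the 4 iBAT groups without a block, with Benjamini-Hochberg adjustment over the genes tested. Mouse FL04 was left out. Interaction tests took the flight change of the knockout minus that of wild type. DESeq2 1.42.0, limma 3.58.1 on log2(TPM + 1) with a minimum of 5 TPM, other scalings, other sets of libraries and the mouse number as a block were tried as alternatives. The pipeline was run on simulated counts drawn from a single ground profile, with a set of genes changed equally often up and down. The simulation held no mouse-number effect and no library with muscle transcripts, so it does not test how the pipeline handles those. Depth of 15.7 to 16.3 M counts per library limits genes with few counts, and RSEM divides reads between near-identical genes. No 2 knockout libraries agreed within sampling noise.

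Flight and ground mice with the same number are different animals, and the labels do not say what the number marks. The correlation of their deviations from the group means was 0.243, 0.351, 0.252, 0.122 and 0.205 for knockout numbers 01, 02, 09, 11 and 12, and 0.001 to 0.289 for the 6 wild-type numbers. Every knockout pair was above 0.1, and blocked values are given where they change a call. Correlations between mice of different numbers were not computed, so these values cannot show matching by the single number.

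Genes were named by rule. They were Nfe2l2, up to 8 genes per direction with the largest change (called with and without FL11, no overlap between groups, at least 5 TPM in 1 group, not in the muscle list), up to 4 called members per list and direction with the smallest adjusted p, a fixed set of genes of brown fat biology, and the 5 genes with the smallest interaction p. A few others are named where a count is small or a result turns on them, after their values were seen. The members and lists were chosen with earlier results of these data known. Lists were described by counts and medians, with no test of a list. Some genes that met the rule are not reported here.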

Additional observations from a re-analysis of the deposited data

Results flagged for a closer look

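Of 368 sets of values per group and measure (library measures and the genes named), 25 held 1 mouse far from the others of its group, with a gap to the nearest mouse that was large against the whole range of the group. About 1 in 20 such sets is marked by chance. The causes were not tested.

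In FL_KO, FL11 gave 17533 CPM over the skeletal muscle list (the other mice 80.4 to 244 CPM), 2216 CPM of Acta1 (0.222 to 19.5) and 46.2 CPM of Cox6a2 (0 to 0.601), and 251 CPM of Vegfa (272 to 281). FL01 gave 20.1 CPM of Fosb (the others 2.11 to 6.23), 33908 CPM of Scd1 (12874 to 17886) and 1.20 CPM of Gm32468 (0.158 to 0.389). FL02 was low for Fabp5 at 15.7 CPM (the others 23.0 to 24.7) and high for Hsp90b1 at 306 CPM (218 to 235), Rplp0 at 317 CPM (260.2 to 269) and Slc2a1 at 9.46 CPM (5.16 to 6.23). FL09 was high for Gpd1 at 5298 CPM (3401 to 3602) and Pmvk at 34.3 CPM (24.0 to 25.5), both of which were below every ground mouse even so.

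In GC_KO, GC12 accounted for 8 of the 25. Its TMM factor was 0.933 (the others 0.859 to 0.884) and its muscle list 282 CPM (98.7 to 120). Acta1 read 24.2 CPM (0.0714 to 0.923) and Cox6a2 0.673 CPM (0 to 0.0698) in that mouse. Cyp4b1 was high at 62.4 CPM (39.4 to 43.6), whereas Acsf3 at 98.0 CPM (110.1 to 113), Gbe1 at 261 CPM (308 to 325) and Pcca at 223 CPM (246 to 254) were low. GC11 was high for Fasn at 39520.1 CPM (30226 to 33663) and Acsl3 at 67.1 CPM (45.3 to 52.9). GC01 was low for Atf5 at 162 CPM (201 to 225) and GC09 for C1qb at 4.84 CPM (6.96 to 8.05).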

How the results depend on the processing

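The split of higher and lower calls depended on the scaling, and the number of genes whose flight response differed between genotypes depended on the test and the libraries. With library size alone 6826 genes were called higher and 763 lower, and with limma on log2(TPM + 1) 5230 and 435. In every other alternative both counts stayed within 1.5 times of 2303 and 2251, and leaving out 1 mouse at a time gave 1839 to 2251 higher and 1958 to 2210 lower. Genes with a different flight response, 0 with all 23 libraries, numbered 99 with DESeq2 (101 without FL11), 17 with FL04 included, 5 with limma on log2(TPM + 1), 4 with the muscle level as a covariate, 3 with library size alone and 1 with no filter on low counts. The 101 included Mb and Ampd1 of the skeletal muscle list, and the muscle-carrying FL06 and FL08 stayed in that fit. With edgeR, leaving out 1 mouse gave 0 to 10. Added after seeing the data, the 2-level number term gave 49 and mice 01 to 06 alone gave 16.

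With the mouse number as a replicate block in a paired fit, 2196 genes were called higher and 2208 lower, and 5 differed between genotypes. The block changed the call of 10 named genes: Lep, Dio2, Hmox1 and Tsc22d3 gained it, Pnpla2, Lipe, Plin5 and Keap1 lost it, and so did the muscle genes Acta1 and Cox6a2 (adjusted p = 0.418 and 0.219). It changed no other call of a named gene.

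Signs turned in the following cases, and the cause was not tested. With library size alone Cidea was at 0.028, Keap1 at 0.14, Lipe at 0.12, Plin5 at 0.018, Pnpla2 at 0.17 and Vegfa at 0.25. On log2(TPM + 1) Cidea was at 0.11, Cpt1b at 0.25, Dgat2 at 0.054, Keap1 at 0.18, Lipe at 0.20, Nfe2l2 at 0.31, Plin5 at 0.079, Pnpla2 at 0.25 and Vegfa at 0.39. Cox6a2 was at -0.51 with the muscle level as a covariate, and Gk at -0.033 in mice 01 to 06. Of the named genes, 23 lost their call in mice 01 to 06 alone and 20 in mice 07 to 12 alone, where each group has 2 or 3 mice. Genes with few counts, such as Nqo1, are limited by depth.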
